A study of Mus musculus with 2 samples.

Results

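The alpha and beta globin genes encode the protein chains of hemoglobin, and 6 of them were measured among 24675 genes with a symbol in tissue from beneath and above the dorsal aorta of the mouse embryo. They were chosen by name, as every measured gene whose symbol begins with Hba- or Hbb-. The 3 embryonic globins are Hba-x, Hbb-y and Hbb-bh1, and the 3 remaining globins are Hbb-bh2, Hbb-bs and Hbb-bt. The adult alpha globins Hba-a1 and Hba-a2 were not analysed here.

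The samples were ventral tissue, cut from under the aorta, and dorsal tissue, cut from above the vessel, up to the notochord. Both came from the same C57Bl/6 embryos at embryonic day 10.5, which carried no stated allele or treatment; how many embryos were used is not stated in the sources used here. Each tissue was measured on 1 array, labelled biological replicate 4 in both cases, so no value below has an error, a test or a p-value. The pieces were taken by laser from stained frozen sections without sorting cells, and the series concerns the subaortic niche of blood stem cells.

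A hemoglobin molecule pairs alpha-type with beta-type chains around heme, and the mouse makes different chains as it develops. Primitive red cells, which arise in the yolk sac and circulate as nucleated cells, make the embryonic chains. Hba-x encodes the alpha-type zeta chain, Hbb-y the beta-type epsilon-y chain and Hbb-bh1 the beta-type beta-h1 chain. Hbb-bs and Hbb-bt are the pair of adult beta globin genes of C57Bl/6 mice, which definitive red cells of the fetal liver and marrow use. Hbb-bh2 is a further beta-like gene of the cluster.

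The promoters of the members are shown to describe their sequence, and a link between sequence and signal was not tested. RefSeq sequence of the GRCm38.p6 assembly was matched for 5 of the 6 members, and Hbb-bh1 was not among them. The 150 bases before each annotated start are given on the gene's own strand. Capitals mark CACCC, bound by Klf factors, GATAA, bound by Gata factors, CCAAT, bound by CCAAT-binding factors, and the TATA-box forms TATAA and ATAAA, each searched on both strands.
Hba-x, chr11:32276450-32276599, plus strand: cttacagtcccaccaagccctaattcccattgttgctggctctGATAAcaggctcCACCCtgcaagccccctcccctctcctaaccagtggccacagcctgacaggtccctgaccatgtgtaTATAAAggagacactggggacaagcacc
Hbb-y, chr7:103853208-103853357, minus strand: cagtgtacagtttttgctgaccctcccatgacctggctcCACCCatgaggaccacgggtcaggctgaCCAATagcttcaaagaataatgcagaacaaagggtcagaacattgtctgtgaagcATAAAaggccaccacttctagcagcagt
Hbb-bh2, chr7:103840522-103840671, minus strand: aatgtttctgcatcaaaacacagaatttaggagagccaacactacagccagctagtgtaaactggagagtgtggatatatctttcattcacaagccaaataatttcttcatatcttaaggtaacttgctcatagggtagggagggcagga
Hbb-bs, chr7:103827929-103828078, minus strand: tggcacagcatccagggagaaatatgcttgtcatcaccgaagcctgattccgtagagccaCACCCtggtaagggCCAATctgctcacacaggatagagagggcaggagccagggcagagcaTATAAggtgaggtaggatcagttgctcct
Hbb-bt, chr7:103813924-103814073, minus strand: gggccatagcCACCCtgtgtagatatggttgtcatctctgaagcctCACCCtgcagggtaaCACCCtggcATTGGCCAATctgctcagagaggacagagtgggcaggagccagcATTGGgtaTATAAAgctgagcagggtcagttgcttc

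CACCC was found in 4 of these 5 promoters and in 37.4% of 32851 RefSeq promoter windows of the same length. CCAAT was found in 3 of the 5, against 24.5% of all windows. TATAA and ATAAA were also found in 3 each, against 14.2% and 24.1% of all windows. TATAA and ATAAA overlapped each other in the promoters of Hba-x and Hbb-bt. GATAA was found in the Hba-x promoter, 1 of the 5, and in 13.3% of all windows. The Hbb-bt promoter had 3 matches each to CACCC and CCAAT, and the Hbb-bs promoter had 1 each. The Hbb-bh2 window had none of these letters, and this window rests on the annotated start. After alignment the promoters of Hbb-bs and Hbb-bt were identical at 72.4% of aligned positions, while the other 9 pairs of promoters were identical at 39.9% to 53.7%. A match is a description of the letters and not of binding.

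Values are log2 expression values, so a difference of 1 is 2-fold. Over all genes they ran from 1.47 to 14.2 in the ventral array and from 1.45 to 14.1 in the dorsal array, with medians of 3.02 and 3.15. A gene was called at background on an array where it lay at or under 3.92, the 95th percentile, across both arrays, of 1365 genes for olfactory and vomeronasal receptors, which these tissues would not be thought to use. Their 99th percentile was 5.48. Markers of position were higher on the side that the labels give. The lists were chosen with earlier results of these data known, so this is not an independent check of the labels. Of 6 kept coelomic and visceral markers, 4 had measured values at least 2-fold higher in ventral tissue, with a list median difference of 1.55, ventral minus dorsal. All 4 were at background in dorsal tissue, which leaves bounds of at least 6.46-fold for Wt1, 5.52-fold for Tcf21, 1.92-fold for Emx2 and 1.38-fold for Podxl. Of 7 kept notochord and sclerotome markers, 4 had measured values at least 2-fold higher in dorsal tissue, with a list median difference of -1.03. After centring the median was -0.91, and Noto, which sets it, fell short of 2-fold. The other 3 markers were at background on both arrays. Pax9 was 4.35-fold higher in dorsal tissue, though its ventral value of 4.02 lay just above the background line. With ventral values at background the bounds were at least 2.30-fold for Shh, 1.34-fold for Uncx and 1.25-fold for Noto. Counts of genes at least 2-fold apart, here and below, are on the measured values. A kept gene is one whose higher array reached 3.10, the median level of all genes, which left 13982 genes.

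The embryonic globins were among the brightest genes of both tissues, and their levels in the ventral and the dorsal piece were close. Hbb-y was measured at 12.00 in the ventral and 12.01 in the dorsal piece, Hbb-bh1 at 11.51 and 11.46, and Hba-x at 11.81 and 12.11. Among the remaining globins Hbb-bt was also bright in both tissues, Hbb-bs was near background and Hbb-bh2 was at background. Of the 6 genes, 4 lay above background on both arrays, where 19.3% of all genes did. The same 4 were among the 100 highest values of both arrays, which holds for 0.316% of all genes. On the ventral array the levels ran, from the highest, Hbb-y, Hba-x, Hbb-bh1, Hbb-bt, Hbb-bs and Hbb-bh2, and on the dorsal array Hba-x came before Hbb-y with the same order after them. How bright a gene is also depends on its probes, so these levels do not rank the amounts of the transcripts.

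**Figure D1:**
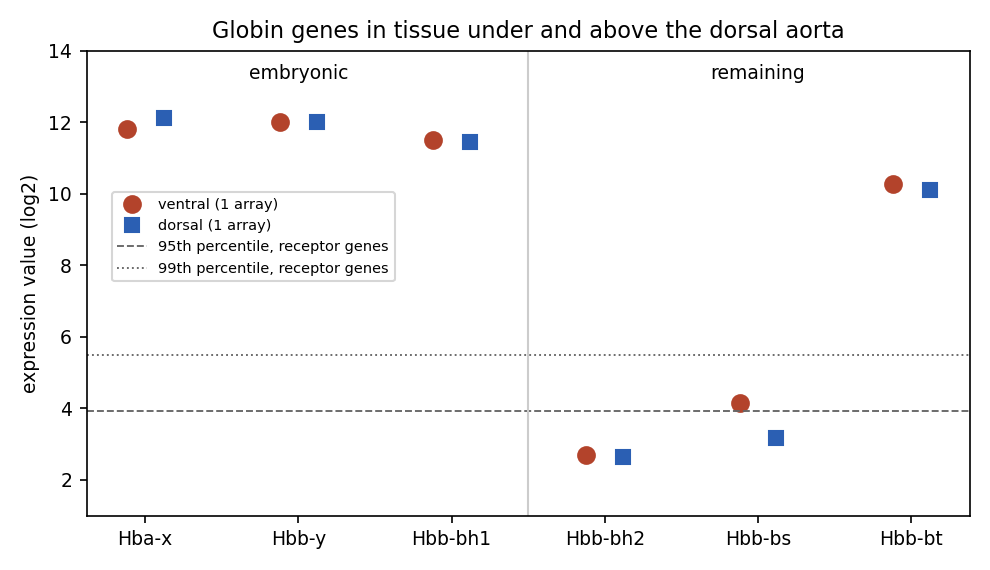
Expression values (log2) of the 6 globin genes, with circles for the ventral and squares for the dorsal array, 1 array each, and lines at the 95th and 99th percentiles of the receptor genes. The 3 embryonic globins and Hbb-bt lie between 10.1 and 12.1 on both arrays, while Hbb-bh2 lies under both lines.

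Among the alpha-type genes, Hba-x was the 1 member measured. Its value was 11.81 in ventral tissue, the 12th highest of the array, and 12.11 in dorsal tissue, the 7th highest. The difference, ventral minus dorsal, was -0.30, which is 1.23-fold lower in ventral tissue. On the deposited values it was the greatest difference among the 4 bright globins, while after centring it was -0.18 and that of Hbb-bt, at 0.28, was greater. With 1 array per tissue its size cannot be set against a replicate spread.

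Among the embryonic beta-type genes, Hbb-y ranked 8 on both arrays, with a difference of -0.01. Hbb-bh1 ranked 19 on both arrays, with a difference of 0.05. Neither sign held under every scaling, as Hbb-y reached 0.11 after centring and Hbb-bh1 -0.23 after removal of a trend with level. On the deposited values the 2 tissues were within 1.04-fold for both genes. On these values the alpha-type gene differed from the beta-type genes by -0.29 against Hbb-y and by -0.35 against Hbb-bh1, as a difference of the log2 differences. These amount to a 1.22-fold and a 1.27-fold lower ratio of Hba-x to its beta-type partner in ventral tissue, with no replicate check.

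Of the adult beta globin pair, Hbb-bt was measured at 10.27 in the ventral and 10.11 in the dorsal piece, where it ranked 92 and 89. The difference was 0.16, or 1.12-fold higher in ventral tissue, but it turned to -0.02 after quantile normalization of the 2 columns and to -0.11 after removal of a trend with level. On the deposited values it exceeded the difference of Hbb-y by 0.17 and that of Hbb-bh1 by 0.11. The ratio of Hbb-bt to either embryonic beta-type gene was thus within 1.13-fold between the tissues.

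Hbb-bs, the other adult beta globin, was measured at 4.16 in the ventral and 3.16 in the dorsal piece. The ventral value lay 0.24 above background and the dorsal value was at background, and only a lower bound can be given, 1.18-fold or more above dorsal tissue. The measured difference was 0.998, just under the 2-fold line at 1. It passed that line at 1.05 after quantile normalization of the 2 columns, at 1.12 after centring and at 1.13 after removal of a trend with level. Hbb-bs and Hbb-bt are near-identical copies, so probes may read both genes or be limited to the positions where they differ, and the split of signal between them is uncertain.

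Hbb-bh2 was measured at 2.70 in the ventral and 2.65 in the dorsal piece, under the background line on both arrays. A difference between the tissues was not detectable at this signal. It was also the 1 member that did not reach 3.10 on either array and so was not among the kept genes.

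None of the 5 kept globins was at least 2-fold apart between the tissues on the deposited values, and Hbb-bs alone was under the 3 other scalings. Over all kept genes 14.3% were, with 9.44% higher in ventral and 4.88% higher in dorsal tissue. The differences of the embryonic globins had a median of -0.01 and ran from -0.30 to 0.05. Those of the remaining globins had a median of 0.16 and ran from 0.05 to 0.998. The median over all kept genes was -0.12. The embryonic minus the remaining median was -0.17, with 3 genes in each group. It was -0.59 without Hbb-bh2, which was at background, -0.49 with means and -1.08 after removal of a trend with level. The last value takes Hbb-bh2 itself, at 0.78, as the remaining median. The trend was fitted on kept genes only, which do not include Hbb-bh2, so that value is not a usable estimate. The size of the difference between the groups is not settled.

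**Figure D2:**
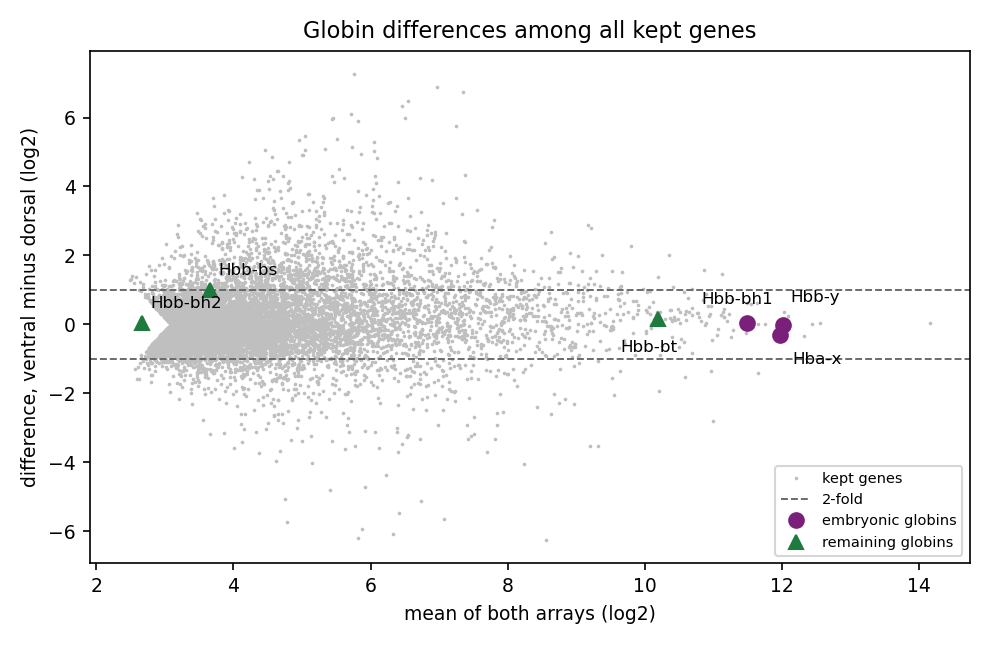
Difference between the tissues (ventral minus dorsal, log2) against the mean of both arrays (log2) for the 13982 kept genes in grey, with dashed lines at 2-fold and the globins in colour; Hbb-bh2, not a kept gene, is shown as well. The 4 bright globins lie within 0.30 of 0 at the right of the plot, and Hbb-bs lies at the 2-fold line.

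The 4 bright globins were set beside other bright genes. Of 1495 genes that exceeded 5.48 on both arrays, 22.9% were at least 2-fold apart, and their median absolute difference was 0.51. Among the 4 bright globins the median absolute difference was 0.11. Differences no greater than that of Hba-x, 0.30, were found in 31.0% of the bright genes. Differences this small were thus found in many other bright genes as well. Most of those genes were dimmer than the 4 globins, with median levels of 7.16 in the ventral and 6.97 in the dorsal piece. In pieces of whole tissue, fewer red cells and less globin RNA per cell cannot be told apart.

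The beta globin locus was read gene by gene, in the order of the GRCm38.p6 assembly. From the embryonic end the members stand in the order Hbb-y, Hbb-bh1, Hbb-bh2, Hbb-bs and Hbb-bt. Signal along this row was high for the first pair, at background for Hbb-bh2, near background for Hbb-bs and high again for Hbb-bt, on both arrays. The cluster lies within a run of olfactory receptor genes, which encode odorant receptors of the nose. Of the 5 nearest measured genes on each side, 9 were such receptors, and they lay between 1.93 and 2.49 in ventral and between 2.01 and 2.89 in dorsal tissue. These 9 belong to the receptor genes that set the background. The tenth gene, the pseudogene Dnajc19-ps, was measured at 4.65 in the ventral and 3.60 in the dorsal piece and was named after its values were seen.

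**Figure D3:**
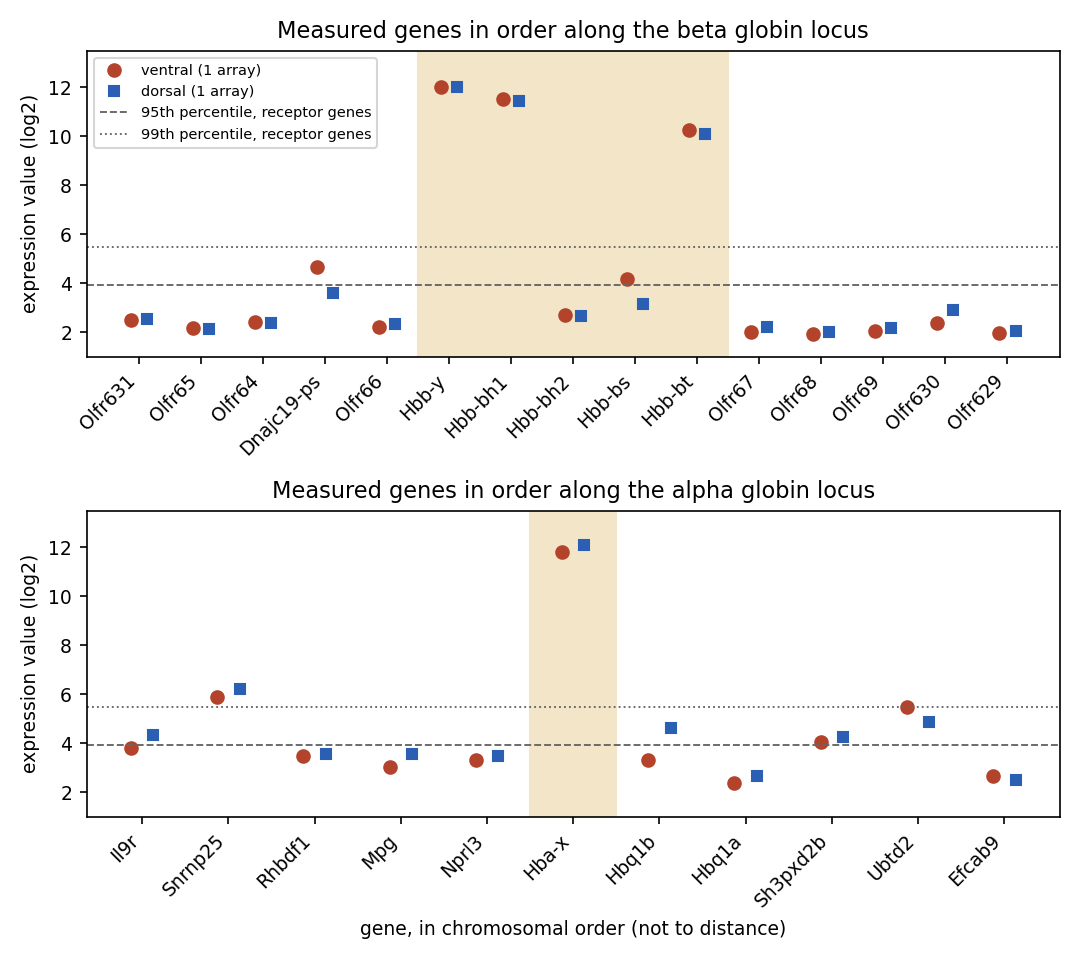
Expression values (log2) of measured genes in chromosomal order along the beta globin locus (top) and the alpha globin locus (bottom), not to distance, with circles for the ventral and squares for the dorsal array, 1 array each. Shaded members of the beta cluster reach up to 12.0 between receptor genes that reach no more than 2.89, and Hba-x stands alone above its measured neighbours.

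Among the measured genes of the alpha globin locus, Hba-x stood between Nprl3, whose introns hold the enhancers of the alpha globin genes, and Hbq1b, a theta globin gene. Nprl3 did not pass the background line, at 3.33 in the ventral and 3.47 in the dorsal piece. Of the 7 genes listed as neighbours of this locus, Luc7l and Polr3k lie on other mouse chromosomes in the assembly, 17 and 2. Luc7l, a splicing factor, was the only one of the 7 at least 2-fold apart, at 5.10 in the ventral and 3.96 in the dorsal piece, or 2.21-fold higher in ventral tissue. The list had a median difference of -0.35. Snrnp25, a spliceosome component that does lie at the locus, was at 5.87 in the ventral and 6.22 in the dorsal piece. Nprl3, Snrnp25 and Polr3k were named after their values were seen.

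Other members of the globin family gave little signal. Hbq1b was measured at 3.30 in the ventral and 4.61 in the dorsal piece. The measured difference of -1.31 was past the 2-fold line, the only such case among these other globins. Of all kept genes 14.3% were that far apart. With the ventral value at background, the dorsal excess can only be bounded, at 1.61-fold or more. Its near-identical copy Hbq1a stayed at background, at 2.39 in the ventral and 2.65 in the dorsal piece, and probes may read both copies. Ngb, the neuroglobin of nerve cells, was at 4.33 in the ventral and 4.40 in the dorsal piece. Mb, the oxygen store of muscle, and Cygb, which encodes cytoglobin, were at background on both arrays, Mb at 3.17 in the ventral and 3.68 in the dorsal piece and Cygb at 3.12 and 3.23.

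Genes that act with globins in red cells were mostly at background, as were most genes of each array. Of 36 measured genes in 3 lists, 10 lay above background on both arrays, 3 on 1 array and 23 on neither. Over all genes 19.3% lay above it on both arrays, a lower share than in these lists. Of the 30 kept genes 1 was at least 2-fold apart, and it was higher in dorsal tissue. Over all kept genes 14.3% were at least 2-fold apart, with 4.88% higher in dorsal tissue. The median difference of these 30 genes was -0.09.

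The exception was Klf1, the erythroid transcription factor that activates adult beta globin through CACCC boxes. It was measured at 4.25 in the ventral and 5.35 in the dorsal piece, 2.14-fold higher in dorsal tissue, and fell just short of 2-fold after centring, with a difference of -0.98. It was 1 of 9 kept genes among 13 erythroid and globin-switching factors, whose median difference of -0.07 turned to 0.04, 0.05 and 0.07 after quantile normalization, centring and removal of a trend with level. Gata1, the master regulator of red cell genes, was at background at 2.54 in the ventral and 2.84 in the dorsal piece. Bcl11a, a repressor of embryonic globins in definitive cells, was at background at 3.30 in the ventral and 3.86 in the dorsal piece. Gfi1b, another of these factors, was at 5.28 in the ventral and 4.66 in the dorsal piece, or 1.54-fold higher in ventral tissue. Gata1, Bcl11a and Gfi1b were named after their values were seen.

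Of 12 kept genes of heme synthesis, iron uptake and hemoglobin assembly, none was at least 2-fold apart, against 14.3% of all kept genes. The median difference was -0.07, which turned to 0.05 after centring and 0.01 after removal of a trend with level. The 4 brightest were Slc25a37, Alad, Urod and Fech. Slc25a37, mitoferrin, which carries iron into the mitochondria of red cell precursors, was at 7.26 on both arrays. Alad, the enzyme after the first step of heme synthesis, was at 5.10 in the ventral and 4.84 in the dorsal piece. Urod, another enzyme of the pathway, was at 4.79 in the ventral and 4.44 in the dorsal piece, and Fech, which inserts the iron, at 4.36 in the ventral and 4.60 in the dorsal piece. Alas2, the erythroid form of the first enzyme, was at 4.10 in ventral tissue and at background in dorsal tissue, at 3.40, and was named after its values were seen.

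Of 9 kept genes of the red cell membrane and surface, none was at least 2-fold apart, against 14.3% of all kept genes. The median difference was -0.22. Slc4a1, the band 3 anion exchanger, passed the background line on both arrays, at 4.29 in the ventral and 4.15 in the dorsal piece. Rhd, a blood group protein, passed the line in dorsal tissue alone, at 3.32 in the ventral and 3.94 in the dorsal piece. Epor, the erythropoietin receptor, stayed at background, at 3.85 in the ventral and 3.39 in the dorsal piece.

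**Figure D4:**
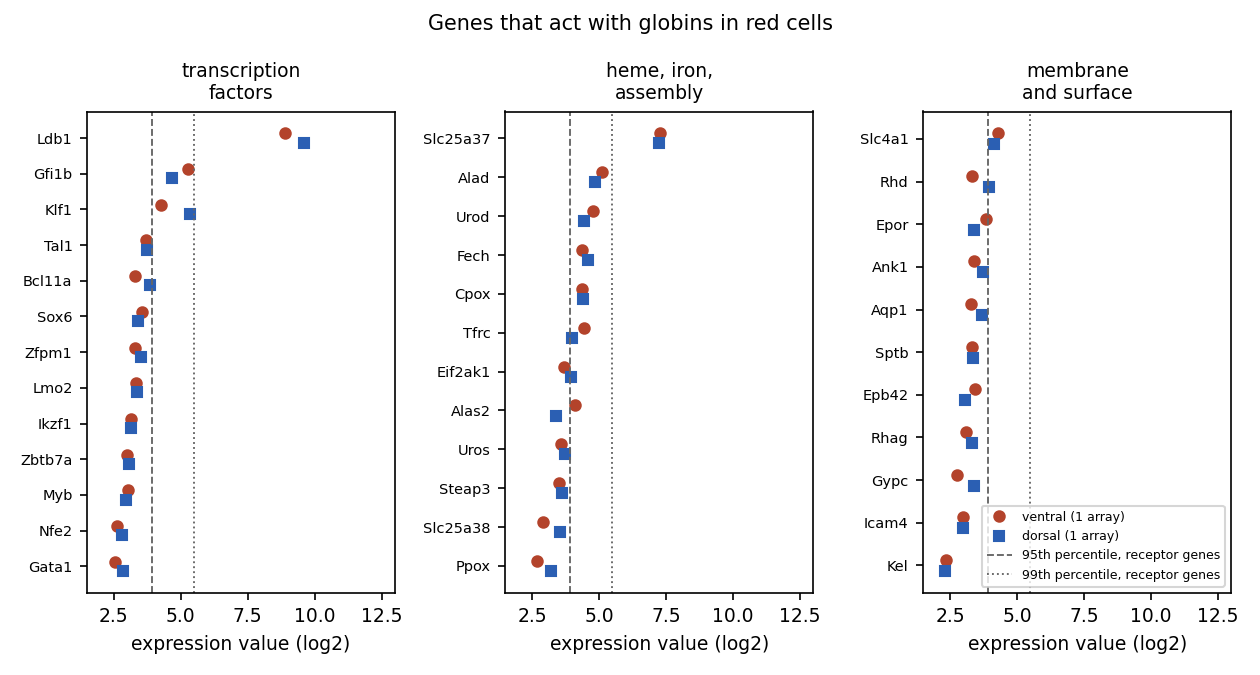
Expression values (log2) of the 36 measured genes of the 3 red cell lists, each sorted by the mean of both arrays, with circles for the ventral and squares for the dorsal array, 1 array each, and lines at the 95th and 99th percentiles of the receptor genes. Most genes lie left of the dashed background line, and Ldb1 and Slc25a37 lie to the right of both lines on both arrays.

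In the red cell lists only Slc25a37 and Ldb1 exceeded 5.48 on both arrays and could be set beside the embryonic globins by their difference over the 2 arrays. Slc25a37, with a difference of 0.01, lay 0.02 from the embryonic median. Ldb1, a widely expressed adaptor that links the beta globin enhancer to its promoters, was at 8.88 in the ventral and 9.61 in the dorsal piece, and its difference of -0.73 lay 0.72 from that median. A likeness over 2 arrays rests on a single difference and is a weak measure.

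Markers of other blood cells were at background. All 9 measured markers of white blood cells and platelets lay under the line on both arrays, from 2.44 to 3.47 in ventral and from 2.24 to 3.47 in dorsal tissue. Only 19.3% of all genes lay above the line on both arrays, so a gene at background was common. The brightest of them, Mpo, an enzyme of granulocytes, was at 3.47 on both arrays, and Spi1, a myeloid transcription factor, was at 3.02 in the ventral and 3.45 in the dorsal piece. The 4 kept markers had a median difference of -0.10, which turned to 0.09, 0.02 and 0.11 after quantile normalization, centring and removal of a trend with level.

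Several endothelial markers were higher in ventral tissue. Of 5 kept markers, 3 had measured values at least 2-fold apart, all with the higher value in ventral tissue, and the list median difference was 1.08. Cdh5, the adhesion protein of endothelial junctions, was at 6.64 in the ventral and 4.22 in the dorsal piece, Emcn at 5.15 and 3.27, and Kdr, the VEGF receptor, at 4.83 and 3.75. Cdh5 was thus 5.34-fold higher, while the dorsal values of Emcn and Kdr were at background and leave bounds of at least 2.34-fold and 1.88-fold. Pecam1 fell just short of 2-fold, at 4.99 in the ventral and 4.02 in the dorsal piece. Tie1, also kept, and Tek, not kept, were at background on both arrays. Tie1 was at 3.31 in the ventral and 3.54 in the dorsal piece, and Tek at 2.55 and 2.58. Pecam1, Tie1 and Tek were named after their values were seen. The linear values of all 6 measured markers summed to 7.72 in the ventral and 6.24 in the dorsal piece on the log2 scale. This sum adds levels from different probes and leans on Cdh5, the brightest marker on both arrays. The embryonic globin differences lay between -0.30 and 0.05. The share of vessel in each piece, and its part in the globin levels, was not tested.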

How the data were processed

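Per the series design, the chip was the Affymetrix Mouse Gene 2.0 ST array, and 1 ventral and 1 dorsal sample were analysed. The labels' protocols give sections of 20 µm and an input of 200 to 1000 pg of RNA, which was amplified. The deposited values are log2 expression values made with Affymetrix Expression Console and RMA, per the submitters' processing notes. Tool versions, genome build, probe annotation and the set of arrays that shared the normalization are not stated there.

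Of 25429 features, 24675 had exactly 1 symbol in the platform annotation and 754 had none and were left out. All 24675 were found by gene number in a GRCm38.p6 reference table, used for names and gene order. Arrays were assigned to tissues by title. The log2 difference, ventral minus dorsal, was computed for each gene. Where the lower value was at background, the fold is the brighter value against the receptor genes' 95th percentile. Precision is limited by the number of arrays. The members and the 9 gene lists (84 genes, 76 measured) were chosen with earlier results of these data known. Named genes were all members and other globins; of each other list, those above background and at least 2-fold apart, otherwise the 2 to 4 brightest; and up to 3 red cell genes nearest in difference to the embryonic globins. Alternatives were quantile normalization, centring, removal of a loess trend on level (span 0.3), thresholds of 1.5-fold and 3-fold, means, and other floors. The 2-fold counts and the 3 scalings were tested on simulated data, with changes placed only in bright genes. The other steps were not tested in this way. Promoters were aligned globally (match 1, mismatch -1, gap opening -3, gap extension -1). Python 3.11.15, numpy 2.4.6, pandas 2.3.3, statsmodels 0.14.6, biopython 1.88 and matplotlib 3.10.9 were used.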

Additional observations from a re-analysis of the deposited data

How the results depend on the processing

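The main limit is 1 array per tissue: no value has a replicate error, and signal near background gives no usable fold for Hbb-bh2 and only a bound for Hbb-bs. No paired analysis was possible because each tissue had a single array. The count of globins at least 2-fold apart, 0 on the deposited values, was 1 under quantile normalization, under centring and under the loess, and that gene was Hbb-bs in each case. The embryonic minus remaining median difference, -0.17, was -1.08 under the loess and -0.49 with means. In an alternative chosen after seeing the data it was -0.59 without Hbb-bh2. The loess value takes Hbb-bh2, which was not among the kept genes used for the fit, as the remaining median. To 2 decimals the difference was the same under quantile normalization and centring, but centring shifts both medians alike and cannot change it. The loess fit, which lowers bright genes and raises genes near background, gave Hba-x -0.58, Hbb-y -0.30, Hbb-bh1 -0.23, Hbb-bt -0.11 and Hbb-bh2 0.78, so the signs of Hbb-bh1 and Hbb-bt turned. Hbb-bt was also just below 0, at -0.02, under quantile normalization, and Hbb-y was above 0, at 0.11, under centring. Hba-x stayed lower in ventral tissue under all 3 scalings, between -0.58 and -0.18. The counts over all kept genes were 2286 higher in ventral and 2099 in dorsal tissue at 1.5-fold, and 626 and 228 at 3-fold, against 1320 and 682 at 2-fold. A change under 0.1 on the log2 scale was taken as none. By that mark 4 of 18 values for single globins and 23 of 53 for the list medians did not move. Centring takes the kept-gene median of -0.12 off every value, so under it all of these moved by construction. A change of sign was counted only for differences of at least 1 in size, and none was found. No globin reached that size on the deposited values, so none could be counted.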
